A study of Saccharomyces cerevisiae with 9 samples.

Results

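The response of 10 NAD synthesis genes to a salt shock was followed in the budding yeast Saccharomyces cerevisiae. The genes were chosen by name for their place in the pathway, with earlier results of these data known. They were PNC1, NPT1, NRK1, NMA1, NMA2, QNS1, BNA1, BNA2, BNA4 and BNA5. All 10 were found among the 6868 features of the value table and carried a value on each array. Yeast makes NAD by a de novo route, in which the BNA enzymes turn tryptophan into nicotinic acid mononucleotide, and by salvage of nicotinamide, nicotinic acid and nicotinamide riboside. Pnc1 begins nicotinamide salvage by converting nicotinamide, an inhibitor of the deacetylase Sir2, into nicotinic acid, and is known as an enzyme whose abundance rises under many stresses. The routes meet at the adenylyl transferases Nma1 and Nma2, and Qns1 completes the cofactor in those that run through nicotinic acid mononucleotide.

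All cells lacked the chromosomal RPB1 gene, which encodes the largest subunit of RNA polymerase II, and lived on a plasmid copy. In the strain labelled CTD14, called wild-type here, the plasmid encoded an unaltered but shortened C-terminal domain (CTD) of heptad repeats. In CTD2A (S2A) and CTD5A (S5A), a block of repeats carried alanine in place of serine at the second or the fifth position of the heptad, followed by a block of unaltered repeats, since a wholly altered domain does not support life. Each mutant is therefore partial, and no strain with a chromosomal RPB1 was measured here. The mutants also differ in how many repeats are altered, and all 3 strains in the total number of repeats. Cultures were grown in rich YPD medium and brought to 0.7 M NaCl for 30 min, and each of 9 two-colour arrays, 3 per strain, set the salt-treated culture against the unstressed culture of the same strain.

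The values below are log2 ratios of salt-treated to unstressed culture after the authors' normalization, so a value above 0 is a higher abundance after salt, and abundance before stress is not seen. The sign was taken from the methods and checked on 10 textbook genes. Over the 9 arrays, 5 salt-induced genes (GPD1, STL1, CTT1, HSP12 and GRE1) had 45 of 45 values above 0 and 5 growth genes (NSR1, NOP1, RPA190, FUR1 and RPL3) had 0 of 45. Between 156 and 1163 features were without a value on an array, and the 5645 features complete on all 9 were fitted together in limma, with p adjusted by the Benjamini-Hochberg method over all of them. An adjusted p below 0.05 was taken for a response to NaCl and, where strains were set against each other, 0.025 or less was required. The spread of the S5A arrays (median absolute deviation 0.672 to 0.701 over features) was narrower than that of the wild-type (0.792 to 0.927) and S2A arrays (0.805 to 0.924). The 3 arrays of a strain carry replicate numbers, the sources used here do not say whether they are separate cultures, and a p-value measures only the spread between them.

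PNC1 (YGL037C) was the member that moved most. In wild-type cells its log2 ratio was 4.15, 3.77 and 3.54 on the 3 arrays, a mean of 3.82 ± 0.31 (SD, n = 3) or a 14.1-fold rise (95% confidence interval 11.2 to 17.9; limma adjusted p = 1.97e-08). This put it 44th from the top of the 5645 features. In S2A the log2 ratio was 4.04, 3.32 and 3.68, with a mean of 3.68 ± 0.36 and a 12.8-fold rise (limma adjusted p = 2.57e-08). In S5A it was 3.17, 2.77 and 2.96, with a mean of 2.97 ± 0.20 and a 7.81-fold rise (limma adjusted p = 2.49e-07). The wild-type and S2A arrays overlapped, whereas each S5A array lay below every wild-type and S2A array. PNC1 ranked 53rd in S2A and 51st in S5A. The ratio of the S5A fold to the wild-type fold was 0.552.

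**Figure D1:**
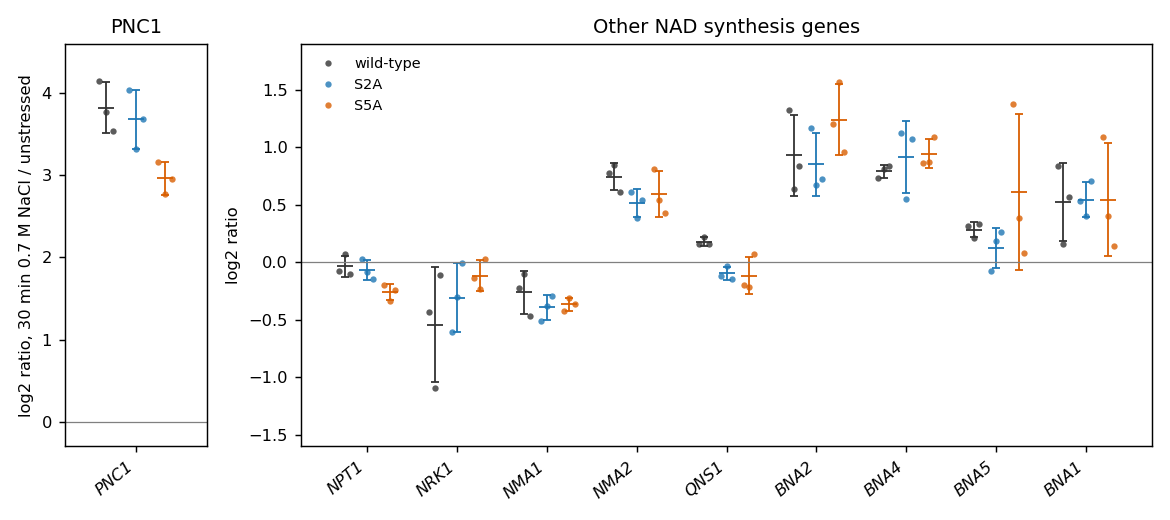
Log2 ratio of salt-treated to unstressed culture for the 10 NAD synthesis genes (vertical axes, PNC1 on its own longer scale) in wild-type, S2A and S5A. Points are arrays, horizontal marks the mean and bars the SD (n = 3); PNC1 lay between 2.77 and 4.15 on all arrays, and the other members between -1.09 and 1.57.

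The other salvage genes did not share this rise. NPT1 (YOR209C) encodes nicotinate phosphoribosyltransferase, which acts on the product of Pnc1. Its log2 ratio was -0.07, 0.07 and -0.10 in wild-type, 0.03, -0.08 and -0.14 in S2A, and -0.20, -0.33 and -0.24 in S5A. Every S5A array lay below the arrays of the other strains, and only in S5A did the change pass the test (-0.26, SE 0.088; limma adjusted p = 0.0268, against 0.741 in wild-type and 0.523 in S2A). That call was lost without S5A replicate 1 (adjusted p = 0.0551), replicate 2 (0.145) or replicate 3 (0.0823) and after median centring (0.0679), and the S5A minus wild-type difference of -0.22 did not pass (95% confidence interval -0.50 to 0.06; limma adjusted p = 0.25).

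NRK1 (YNL129W) encodes the kinase that phosphorylates nicotinamide riboside. Its log2 ratio was -0.43, -1.09 and -0.11 in wild-type, -0.61, -0.30 and -0.01 in S2A and -0.14, -0.23 and 0.03 in S5A. The groups overlapped, and the wild-type mean was set largely by replicate 2. NRK1 fell in wild-type by 0.54 on the log2 scale (SE 0.17; limma adjusted p = 0.0162), a call that was lost without wild-type replicate 2 (mean -0.27, adjusted p = 0.150) and with array weights (-0.22, adjusted p = 0.108). The S2A mean of -0.31 and the S5A mean of -0.12 did not pass (limma adjusted p = 0.135 and 0.575). The S2A value passed once wild-type replicate 2 was left out of the shared fit (adjusted p = 0.0492).

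The 2 genes for the adenylyl transfer step, which are paralogs with the same enzymatic activity, moved in opposite directions. NMA2 (YGR010W) had log2 ratios of 0.78, 0.85 and 0.61 in wild-type, 0.62, 0.39 and 0.55 in S2A and 0.82, 0.54 and 0.43 in S5A. It rose in each strain, by 1.68-fold, 1.43-fold and 1.51-fold (limma adjusted p = 9.35e-05, 0.0012 and 0.000615). NMA1 (YLR328W) stood at -0.22, -0.10 and -0.46 in wild-type, -0.51, -0.38 and -0.29 in S2A and -0.42, -0.31 and -0.36 in S5A. All 9 values were below 0, and the change passed in wild-type (-0.26, SE 0.098; limma adjusted p = 0.0344), S2A (-0.39; 0.00452) and S5A (-0.37; 0.00779). The wild-type call for NMA1 ended when either its replicate 1 (adjusted p = 0.0725) or its replicate 3 (0.245; mean -0.16) was removed, on removal of the second (0.0502) or the third (0.0503) S5A array from the shared fit, after median centring (-0.20, adjusted p = 0.101) and with only the wild-type arrays fitted (0.121).

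Taken within each array, the NMA1 log2 ratio minus that of NMA2 was below 0 on 9 of 9 arrays, between -1.24 and -0.76. Its mean was -1.01 ± 0.066 in wild-type (SD, n = 3), -0.91 ± 0.19 in S2A and -0.96 ± 0.24 in S5A. The strains did not separate on this measure. Exact permutation of the arrays, two-sided, gave p = 0.90 for S5A minus wild-type, 0.50 for S2A minus wild-type and 0.60 for S5A minus S2A (0.90 for each after adjustment over the 3 comparisons), where 3 arrays against 3 cannot give less than 0.10. Probes of close copies can share signal, and how far they did so between NMA1 and NMA2 was not tested.

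QNS1 (YHR074W), for the glutamine-dependent NAD synthetase, had log2 ratios of 0.16, 0.22 and 0.16 in wild-type, -0.11, -0.03 and -0.14 in S2A and -0.20, -0.22 and 0.07 in S5A. The wild-type arrays all lay above those of both mutants. No strain's change passed the test (limma adjusted p = 0.101, 0.367 and 0.290), although the wild-type mean of 0.18 did so after median centring (0.24, adjusted p = 0.0368). The differences from wild-type were -0.28 in S2A (95% confidence interval -0.56 to 0.01; limma adjusted p = 0.569) and -0.30 in S5A (-0.58 to -0.01; 0.149).

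In the de novo route, 3 of 4 members rose in wild-type, 3 of 4 in S2A and 4 of 4 in S5A, where 32.3%, 31.6% and 28.9% of all features rose. BNA2 (YJR078W), for tryptophan dioxygenase, the entry step, had log2 ratios of 1.32, 0.64 and 0.83 in wild-type, 1.17, 0.67 and 0.72 in S2A and 1.20, 1.57 and 0.96 in S5A. It rose 1.91-fold, 1.81-fold and 2.36-fold (limma adjusted p = 0.000403, 0.000728 and 7.94e-05), and the 3 groups overlapped. Another protein-coding gene, YJR079W, overlaps BNA2 in the R64 annotation, and their signals may not be separable.

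BNA4 (YBL098W), for kynurenine 3-monooxygenase, had log2 ratios of 0.73, 0.81 and 0.84 in wild-type, 1.13, 0.55 and 1.07 in S2A and 0.87, 0.88 and 1.09 in S5A. All 3 S5A arrays lay above the wild-type arrays, by a small margin, and the S2A arrays spanned both. BNA4 rose 1.73-fold, 1.89-fold and 1.92-fold (limma adjusted p = 0.000156, 5.55e-05 and 6.91e-05), and the S5A minus wild-type difference of 0.15 did not pass (95% confidence interval -0.22 to 0.52; limma adjusted p = 0.576).

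BNA1 (YJR025C) and BNA5 (YLR231C) depended on single arrays. BNA1, for 3-hydroxyanthranilate dioxygenase, had log2 ratios of 0.84, 0.16 and 0.56 in wild-type, 0.53, 0.40 and 0.71 in S2A and 1.09, 0.40 and 0.14 in S5A. All values were above 0 and the groups overlapped. Its means were 0.52, 0.55 and 0.55 (limma adjusted p = 0.0215, 0.0177 and 0.0201). The BNA1 calls were lost without wild-type replicate 1 (wild-type mean 0.36, adjusted p = 0.149) or replicate 3 (0.0835), without S2A replicate 1 (0.0572) or replicate 3 (0.0919), and without S5A replicate 1 (S5A mean 0.27, adjusted p = 0.190).

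BNA5, for kynureninase, stood at 0.31, 0.21 and 0.33 in wild-type, -0.07, 0.19 and 0.26 in S2A and 1.37, 0.39 and 0.08 in S5A. S5A replicate 1 was far above the other 8 arrays. The S5A mean of 0.61 ± 0.68 (SD, n = 3) passed the test (limma adjusted p = 0.0189), and without S5A replicate 1 it was 0.23 (adjusted p = 0.154). The wild-type mean of 0.29 and the S2A mean of 0.13 did not pass (limma adjusted p = 0.214 and 0.583). The wild-type value passed when S5A replicate 1 was left out of the shared fit (adjusted p = 0.0358).

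Counted together, 7 of the 10 genes responded in wild-type, where 70.6% of all features did. Of these 5 rose (background 32.3%) and 2 fell (38.3%), or 6 and 1 after median centring. In S2A 6 responded (68.7%), of which 5 rose (31.6%) and 1 fell (37.1%). In S5A 8 responded (63.1%), of which 6 rose (28.9%) and 2 fell (34.2%), or 6 and 1 after median centring. Without S5A replicate 1 the S5A count became 5, of which 4 rose, where 53.4% of all features responded. The share that responded was thus close to the background. PNC1, NMA2, BNA2 and BNA4 rose in all 3 strains under each alternative processing and with any 1 array left out. The median log2 change of the 10 genes was 0.40 in wild-type, 0.32 in S2A and 0.57 in S5A, and that of all features was -0.06, -0.04 and -0.07.

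The strains were set against each other to ask whether altering the CTD changes the salt response of these genes. By limma, 0 of the 10 genes differed between S5A and wild-type, where 7.95% of all features did (4.13% higher in S5A and 3.83% lower; 0.301% in all without S5A replicate 1). At an unadjusted p below 0.05 there were 2, PNC1 and QNS1, where 31.6% of all features were. The arrays of S5A and wild-type did not overlap for 4 genes (PNC1, NPT1, QNS1 and BNA4), and for 37.7% of all features. PNC1 came nearest to a call, with a difference of -0.86 (SE 0.22; 95% confidence interval -1.34 to -0.38; limma adjusted p = 0.0287), which is a rise 1.81-fold smaller than in wild-type. Blocking on replicate number gave the same PNC1 difference an SE of 0.14 and passed (adjusted p = 0.00904), and 13.5% of all features then passed. With Storey's q-value, the statistic of the study's methods, PNC1 passed as well (q = 0.0147), as did 14% of all features.

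The PNC1 difference depended on how the arrays were scaled. After scaling to one spread it was -0.15 (adjusted p = 0.712), and after quantile normalization -0.05 (0.884). Both procedures give the 9 arrays the same spread, and the part of the narrower S5A spread in the PNC1 result was not tested. With the deposited scale it lay between -0.997 and -0.69 when any 1 array was left out, with adjusted p between 0.0216 (without S2A replicate 1, the only such case past 0.025) and 0.0875.

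**Figure D2:**
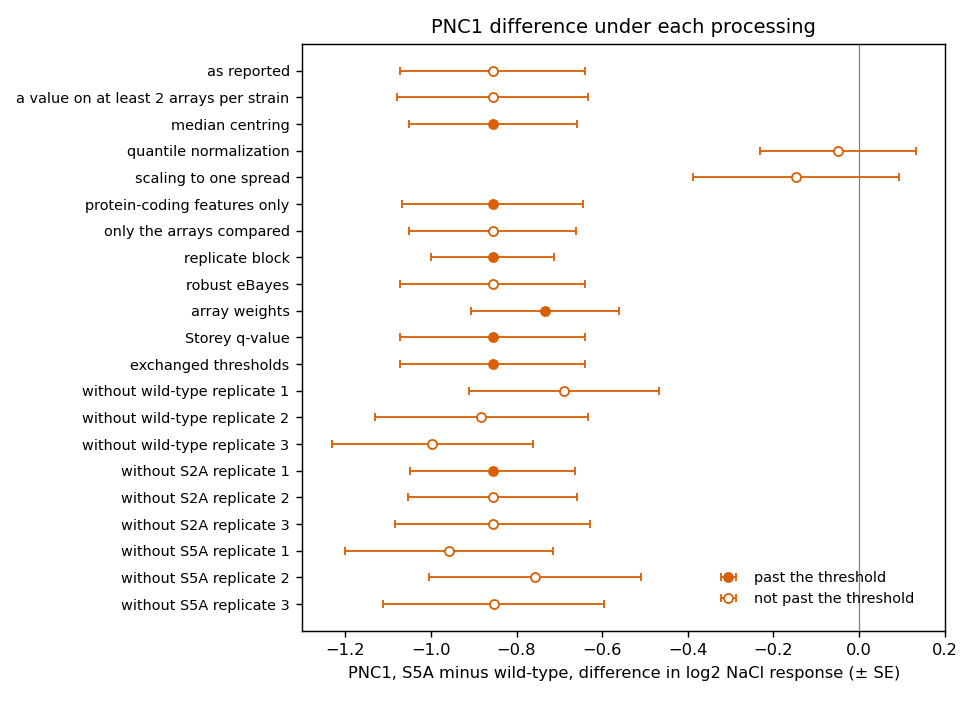
Difference of the PNC1 log2 NaCl response between S5A and wild-type (horizontal axis, ± SE) under each processing, 1 row per alternative. Filled points passed the threshold of that alternative and open points did not; scaling (-0.15) and quantile normalization (-0.05) lay near 0, and all others between -0.997 and -0.69.

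Between S2A and wild-type 0 of the 10 genes passed, as did 0% of all features, and 0 of the 10 were past an unadjusted 0.05, where 8.49% of all features were. QNS1 alone had arrays that did not overlap, as 12.5% of all features did. The PNC1 difference was -0.14 (95% confidence interval -0.62 to 0.34; limma adjusted p = 0.826). Between S5A and S2A 0 of the 10 passed in limma (background 3.31%), with 1, PNC1, at an unadjusted p below 0.05 (27.3% of all features) and 2 (PNC1 and NPT1) whose arrays did not overlap (37% of all features). The PNC1 difference there was -0.72 (95% confidence interval -1.20 to -0.24; limma adjusted p = 0.0669). It passed when blocked on replicate number (adjusted p = 0.0228), and it was -0.0213 after scaling (0.967) and 0.0252 after quantile normalization (0.946). These 3 comparisons share arrays and are not independent.

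For the de novo route the S5A minus wild-type differences were 0.31 for BNA2 (95% confidence interval -0.19 to 0.81), 0.15 for BNA4 (-0.22 to 0.52), 0.33 for BNA5 (-0.29 to 0.94) and 0.02 for BNA1 (-0.53 to 0.58). None passed in limma (adjusted p = 0.376, 0.576, 0.446 and 0.962), and the intervals leave room for changes in either direction. The BNA5 difference was -0.05 without S5A replicate 1, and that of BNA1 was -0.25. NMA1, NMA2 and NRK1 differed by -0.11, -0.15 and 0.43 (limma adjusted p = 0.642, 0.520 and 0.257).

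**Figure D3:**
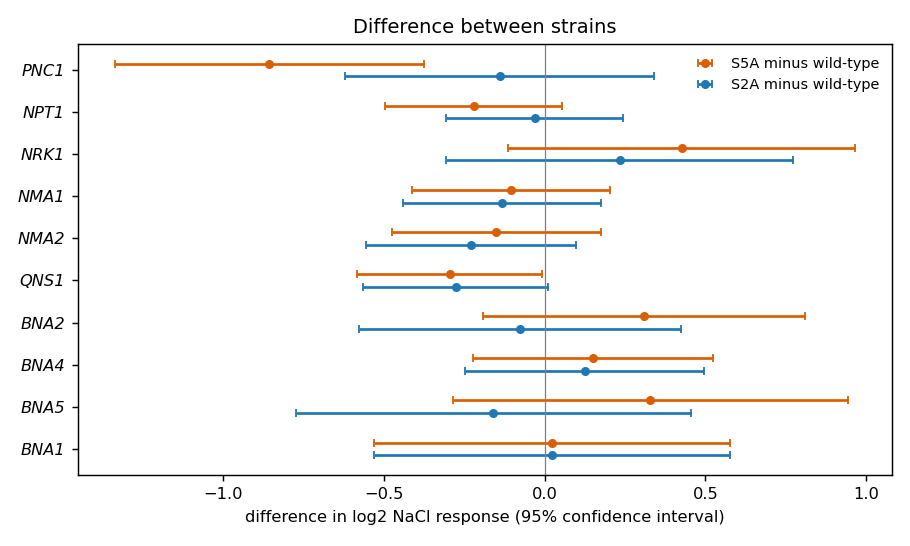
Difference in log2 NaCl response between each mutant and wild-type (horizontal axis) for the 10 genes, with 95% confidence intervals from limma. The intervals of PNC1 and QNS1 for S5A lie below 0 (-1.34 to -0.38 and -0.58 to -0.01), and all others include 0.

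The 5 features whose 9 log2 ratios lay closest to those of PNC1, by root mean square difference over the 9 arrays, were STF2 (0.324), YNR014W (0.345), USV1 (0.349), TSL1 (0.354) and PGM2 (0.359). STF2 encodes a hydrophilic stress protein, USV1 a zinc finger transcription factor, TSL1 a subunit of the trehalose synthase and PGM2 phosphoglucomutase. Since they were picked on these same arrays, their closeness to PNC1 was set by the choice. In wild-type their mean log2 changes were 3.35, 3.70, 3.65, 3.83 and 3.99, beside the 3.82 of PNC1. In S5A they were 2.88, 3.31, 2.97, 2.56 and 2.72, where PNC1 was at 2.97.

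A further 28 genes of NAD metabolism were listed by symbol, of which 27 were complete on all arrays. YEF1, a NAD kinase gene, lacked a value on S5A replicate 1 and was not tested. In wild-type 10 of the 27 rose and 7 fell (32.3% and 38.3% of all features), in S2A 9 rose and 10 fell (31.6% and 37.1%), and in S5A 11 rose and 10 fell (28.9% and 34.2%). Their median log2 change was -0.01, -0.02 and 0.04, near that of all features.

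The remaining enzymes of the de novo route were mixed. BNA6, for quinolinate phosphoribosyltransferase, the last step of the route, rose in wild-type (0.31), S2A (0.31) and S5A (0.48; limma adjusted p = 0.0348, 0.0393 and 0.00508). In wild-type BNA6 no longer passed once replicate 1 (adjusted p = 0.225) or replicate 2 (0.0783) was removed, and the call in S2A without S2A replicate 1 (0.257), S2A replicate 3 (0.0941), S5A replicate 2 (0.0519) or S5A replicate 3 (0.0553). BNA6 also missed the threshold with only the arrays compared (0.0818 in wild-type and 0.0749 in S2A), with array weights (0.0827 and 0.0707) and, in S2A, after scaling (0.052). BNA7, for the formamidase that follows Bna2, fell in each strain (-0.55, -0.88 and -0.38), although in S5A not without S5A replicate 2 (0.0783) or replicate 3 (0.137). BNA3, for kynurenine aminotransferase, which draws kynurenine off the route, rose in wild-type (0.54) and S2A (0.41, but not without S2A replicate 3, 0.0618), and its S5A value was 0.04.

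Among salvage and nucleotide genes, POF1, whose product has been described as an adenylyl transferase for nicotinamide mononucleotide, rose in each strain (1.33, 1.52 and 1.08). PHO5, for the secreted acid phosphatase, fell in wild-type (-1.18) and S2A (-1.51), and its S5A value of -0.49 did not pass in limma. That value did pass when blocked on replicate number (adjusted p = 0.00116), without S2A replicate 1 (0.0463) or S2A replicate 3 (0.0326), and without S5A replicate 3 (-0.68, 0.0388). The PHO5 fall in S5A also passed after quantile normalization (-0.57, 0.0285) and scaling (-0.55, 0.0297), with only the S5A arrays fitted (0.0244) and with Storey's q-value (q = 0.0123). ISN1, for a nucleotidase that can act on the mononucleotides of this pathway, had log2 ratios of 0.92, 0.996 and 0.86 in wild-type, 0.97, 0.65 and 0.70 in S2A and 0.28, 0.38 and 0.37 in S5A. The S5A arrays all lay below the others, and the S5A minus wild-type difference of -0.58 passed (SE 0.13; limma adjusted p = 0.0205). The ISN1 difference was not past 0.025 without any 1 wild-type array (adjusted p = 0.0366 to 0.0566) or any 1 S5A array (0.0523 to 0.0821), nor without S2A replicate 2 (0.0285) or replicate 3 (0.0311). Scaling (-0.46, 0.0424), quantile normalization (-0.46, 0.0409), the looser rule on missing values (0.027) and a fit of only the arrays compared (0.0303) ended the ISN1 call too. The ISN1 rise in S5A itself was lost without S5A replicate 2 (0.0544) or replicate 3 (0.0501).

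Of the transport genes, YIA6 and YEA6, for the carriers that bring NAD into mitochondria, rose in each strain (0.97, 0.87 and 0.71 for YIA6; 0.56, 0.48 and 0.48 for YEA6). TNA1, for the nicotinic acid permease, and NRT1, for a nicotinamide riboside transporter, rose in S5A (0.53 and 0.64; limma adjusted p = 0.00231 and 0.00119), while their wild-type values were 0.05 and 0.12 and those in S2A -0.02 and 0.20. Their S5A minus wild-type differences of 0.48 and 0.52 did not pass (limma adjusted p = 0.0733 and 0.0723). With Storey's q-value NRT1 passed in S2A too (q = 0.0316).

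Of 5 genes for NAD-consuming deacetylases of the Sir2 family, SIR2 fell in each strain (-1.15, -1.16 and -0.91) and HST4 rose in each (1.11, 1.02 and 1.54). HST1 stood at -0.16, -0.15 and -0.07 and passed in no strain. HST2 and HST3 passed in S5A, at -0.36 and 0.49 (limma adjusted p = 0.012 and 0.00948), while their values were -0.02 and -0.08 in wild-type and -0.23 and -0.02 in S2A. The HST2 call was lost without S5A replicate 1 (adjusted p = 0.0523) or replicate 3 (0.0532) and the HST3 call without S5A replicate 1 (0.0833). With array weights HST2 passed in wild-type (-0.19, adjusted p = 0.0472) and S2A (-0.24, 0.0477), and with Storey's q-value in S2A (q = 0.0146). The weights favoured wild-type replicate 3 (3.72, against 0.67 and 0.33 for replicates 1 and 2). HST2 was at -0.26 on that array, and at 0.01 and 0.20 on replicates 1 and 2. The S5A minus wild-type differences of HST2 and HST3, -0.35 and 0.56, did not pass (limma adjusted p = 0.142 and 0.0752).

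All 4 listed regulators of BNA genes responded in each strain, where 70.6% (wild-type), 68.7% (S2A) and 63.1% (S5A) of all features did. Of the 4, 2 rose and 2 fell, beside 32.3%, 31.6% and 28.9% of all features higher and 38.3%, 37.1% and 34.2% lower. SUM1, for the DNA-binding repressor that brings Hst1 to BNA gene promoters, fell (-0.89, -0.84 and -0.91), while RFM1, for the protein that links Sum1 to Hst1, rose (0.61, 0.97 and 0.98). PHO2, for a homeodomain factor that works with Bas1, rose as well (0.84, 1.07 and 0.999).

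BAS1, for a transcription factor that activates BNA genes together with the product of PHO2, fell most of the list, with log2 ratios of -2.17, -2.77 and -2.26 in wild-type, -1.75, -1.84 and -1.97 in S2A and -1.04, -1.67 and -1.51 in S5A. The S5A arrays all lay above the wild-type and S2A arrays. The BAS1 difference between S5A and wild-type was 0.99 (SE 0.21; limma adjusted p = 0.014). Leaving out replicate 2 of wild-type (0.81, adjusted p = 0.0369) or its replicate 3 (0.0382) ended the call, as did leaving out the first (0.0570) or the third (0.0353) array of S5A, and the difference became 0.60 after scaling (0.0789) and 0.34 after quantile normalization (0.268), and it missed 0.025 with only the arrays compared (0.0296). ISN1 and BAS1 were the only 2 of the 27 genes past the threshold between S5A and wild-type, 1 lower and 1 higher, beside the 7.95% of all features (4.13% higher and 3.83% lower). Between S2A and wild-type and between S5A and S2A 0 of the 27 passed in limma, with 2 and 9 at an unadjusted p below 0.05 (8.49% and 27.3% of all features).

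**Figure D4:**
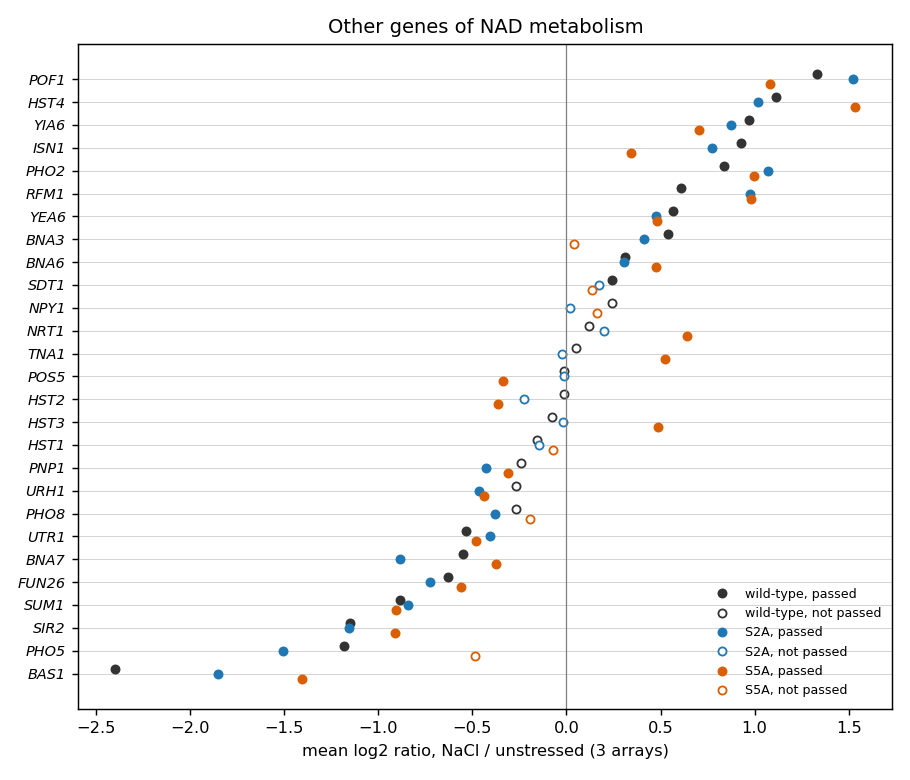
Mean log2 ratio of salt-treated to unstressed culture (horizontal axis, n = 3 arrays per strain) for the 27 further NAD metabolism genes, ordered by the wild-type value. Filled points passed an adjusted p below 0.05 in limma; the wild-type values run from -2.40 for BAS1 to 1.33 for POF1.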

How the data were processed

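The authors hybridized fluorescently labelled cDNA of salt-treated and unstressed cultures to whole-genome tiled NimbleGen arrays and deposited normalized log2 ratios; single-channel intensities were not used here. The probe summary and genome build are not given in the sources used here. The salt-treated culture carried one and the same dye throughout; any bias of the dyes common to all strains drops out when strains are compared, though not from a response. Array medians lay between -0.00135 and -0.00011.

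Systematic names were paired with symbols through a RefSeq table (assembly R64). Features complete on all 9 arrays entered a single model with limma 3.58.1 under R 4.3.3 (lmFit, contrasts.fit, eBayes) that held a mean for each strain and no block. The threshold levels are those of the methods, which set them on Storey's q-value; here they were set on Benjamini-Hochberg p, with the q-value as an alternative. Precision is limited by the number of arrays. The fit was also run on 20 simulated data sets, in which 200 features of S5A were shifted by 1 on the log2 scale. On average 79.2% of the shifted features were recovered between S5A and wild-type, and 2.27% of the calls were false. The simulated errors were independent, with no correlation of same-numbered arrays and no narrower S5A spread, so the simulation does not cover these features of the data.

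Same-numbered arrays of different strains deviated together from their strain means (9 pairs, r = 0.062 to 0.39 across features). Of these 8 were over 0.1, the exception being S2A and S5A replicate 3. Pairs with different numbers had r from -0.32 to 0.10. Among arrays of the other strains, each of the 9 arrays correlated best with a same-numbered one. The study calls the strains paired, but the main fit and the permutation of arrays did not use the pairing. Only the replicate block did, and the main counts between strains are those without it.

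The 10 genes and the pathway list were chosen with earlier results of these data known. Of the pathway list, genes called between strains and the 3 largest wild-type changes are named by rule; all 10 members are named, and the 5 features closest to PNC1. Other pathway genes were named after their values were seen. No promoter sequence was analysed. The alternatives tried were to leave out each array, centre arrays on the median, quantile-normalize them or scale them to one median absolute deviation. Others were to test the 6254 features measured on 2 or more arrays of every strain or the 5309 protein-coding ones. Fits of only the arrays compared, a replicate block, array weights, robust eBayes, Storey's q-value (lambda 0.5) and exchanged thresholds were also tried. The array weights of replicates 1 to 3 were 0.67, 0.33 and 3.72 in wild-type. They were 0.47, 1.20 and 1.30 in S2A, and 0.66, 1.71 and 1.49 in S5A.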

Additional observations from a re-analysis of the deposited data

Results flagged for a closer look

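QNS1 had opposite signs in 2 strains, with all 3 wild-type arrays above 0 (0.16 to 0.22) and all 3 S2A arrays below 0 (-0.14 to -0.03). The difference of -0.28 did not pass limma's test of the difference (adjusted p = 0.569). ISN1 and BAS1 differed between S5A and wild-type by limma's test of the difference, by -0.58 and 0.99 (adjusted p = 0.0205 and 0.014). Neither call held after scaling, after quantile normalization or without certain single arrays, as given above. For both genes the wild-type response was the larger in size, a rise for ISN1 and a fall for BAS1.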

How the results depend on the processing

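With 3 arrays per strain, calls near a threshold moved with single arrays. The count of the 10 genes past the threshold between S5A and wild-type was 0, and became 1 (PNC1) with median centring (adjusted p = 0.0202), protein-coding features (0.0203), the replicate block (0.00904), array weights (0.0105), Storey's q-value (0.0147) and exchanged thresholds (0.0287), and 0 to 1 with an array left out. Between S5A and S2A it became 1 under the replicate block (PNC1, 0.0228), where 1 of the 3 same-numbered pairs correlated below 0.1. With an array left out the count of genes responding in S5A ranged from 5 to 8, and the share of all features from 51% to 66.3%. With Storey's q-value 9 of the 10 responded in wild-type, BNA5 and QNS1 being added, where 84% of all features did. In S2A 7 then responded, NRK1 being added, where 83.1% did. The replicate block also gave a PHO5 response in S5A. It changed no other call of the 10 genes, of the named pathway responses refitted with it, or of the ISN1 and BAS1 differences. No alternative was tried for HST1, or for the S5A minus wild-type differences of TNA1, NRT1, HST2 and HST3.

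Over all features, 449 passed between S5A and wild-type, against 182 after quantile normalization, 221 after scaling, 298 with only the arrays compared, 762 with the replicate block, 1284 with array weights, 789 with Storey's q-value and 798 with exchanged thresholds. Of the 449, 233 were higher and 216 lower in S5A, against 72 and 110 after quantile normalization. Between S5A and S2A 187 passed, against 88 when 2 measured arrays of each strain sufficed, 70 after quantile normalization, 54 after scaling, 61 with only the arrays compared, 315 with the block, 423 with weights, 414 with Storey's q-value and 464 with exchanged thresholds. With an array left out these shares ran from 0.301% to 8.15% and from 0% to 4.87%.

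Some values changed sign. Median centring moves every value of an array by the same amount, and the cause of the other sign changes was not tested. With median centring NPT1 in wild-type was 0.0268, HST2 in wild-type 0.0462, TNA1 in S2A 0.0276, HST3 in S2A 0.0299 and BNA1 between S5A and S2A 0.0112. With array weights TNA1 in wild-type was -0.0385, NMA1 and BNA1 had S5A minus wild-type values of 0.0521 and -0.16, and NMA1, NRK1 and BNA1 had S2A minus wild-type values of 0.0423, -0.0036 and -0.0209. Between S5A and S2A, quantile normalization gave 0.0252 for PNC1 (-0.72 as deposited), -0.0554 for NMA1 and 0.10 for BNA1, and scaling -0.0582 for NMA1 and 0.11 for BNA1. The S5A minus wild-type difference of NMA1 against NMA2 was -0.15 after quantile normalization and -0.17 after scaling.

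With each array left out in turn, BNA1 ran from -0.25 to 0.23 (S5A minus wild-type), -0.16 to 0.18 (S2A minus wild-type) and -0.27 to 0.20 (S5A minus S2A), and BNA5 from -0.0517 to 0.60 (S5A minus wild-type). S2A minus wild-type ran from -0.32 to 0.0392 for PNC1, -0.0772 to 0.0218 for NPT1, -0.0407 to 0.45 for NRK1 and -0.24 to 0.12 for BNA2. S5A minus S2A ran from -0.0319 to 0.0762 for NMA1, -0.0306 to 0.16 for NMA2, -0.11 to 0.0328 for QNS1 and -0.16 to 0.13 for BNA4. TNA1 ran from -0.0382 to 0.11 in wild-type and -0.0876 to 0.084 in S2A, HST2 from -0.12 to 0.11 in wild-type, and HST3 from -0.25 to 0.0526 in wild-type and -0.0675 to 0.0654 in S2A. NMA1 against NMA2 ran from -0.041 to 0.18 (S5A minus wild-type), 0.02 to 0.21 (S2A minus wild-type) and -0.16 to 0.0855 (S5A minus S2A).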

Other observations

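Genes next to the 10 members in the R64 annotation were looked up after the member values were seen, and are given as levels with no test. NMA1, which changed by -0.26 in wild-type, lies between TMA10 and REC102, whose mean log2 changes in wild-type were 3.72 ± 0.48 and 2.50 ± 0.14 (SD, n = 3) and in S5A 1.86 ± 0.35 and 1.39 ± 0.46. PNC1 (3.82 in wild-type) lies between OCH1, a mannosyltransferase gene (0.77), and VIR1 (1.14). QNS1 (0.18) lies between OSH3 (0.0022) and PPE1 (1.32).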
